A study of Mus musculus with 18 samples.

Results

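The regions described here are sites of the nuclear receptor PPARg in mouse liver that lie in distal stretches of active chromatin. The peaks of the 4 PPARg libraries were merged by an overlap of at least 1 bp, on chromosomes 1 to 19 and X. A region was kept if it was called in all 4 lists, overlapped an H3K27ac region called in all 6 libraries of that mark, met no H3K4me3 peak of either library and met no CTCF region of both WT libraries. Of 33942 merged PPARg regions 10128 were called in all 4 lists, and 5974 of these (59.0%, or 17.6% of all) met the whole rule. H3K4me3 peaks removed 2504 of the 10128, CTCF regions 435 more, and 1215 had no H3K27ac region of all 6 libraries. The sites were thus chosen by measured values, the peak calls of PPARg, H3K27ac, H3K4me3 and WT CTCF, and what follows on those calls is description.

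The livers came from C57BL/6 mice of 8 weeks with both Ctcf alleles floxed. The knockout (KO) also carried the Alb-Cre transgene, in which the albumin promoter drives the recombinase in hepatocytes. Its controls (WT) carried the floxed alleles without the transgene, so no group had unmodified Ctcf alleles. PPARg and CTCF were profiled by ChIP-seq in 2 WT and 2 KO libraries each, H3K27ac in 3 and 3, and H3K4me3 and H3K27me3 in 1 and 1. Each library is whole liver, so a weaker peak in every cell and a peak in fewer cells cannot be told apart. The labels do not say whether replicates were separate animals, so p-values measure only the spread between these libraries. By the labels a tagmentation kit and male mice fasted overnight on chow stand behind all CTCF libraries and 3 of PPARg (WT 2, KO 7, KO 8), whereas PPARg WT 4 and every histone library used a ligation kit and name no sex. The growth text of the latter describes neural stem cells, although tissue and source read liver. H3K4me3 marked 27 of 28 plasma protein and apolipoprotein genes in either genotype, against 1 (WT) and 3 (KO) of 12 neural stem cell markers. None of the 12 had one of the 5974 sites within 10 kb, and 2 (16.7%) had one within 50000 bp, against 28.7% of all protein-coding genes. PPARg regions of all 4 lists at H3K4me3 were at 2 of the 12 (16.7%), beside 12.3% of all. Sites needed PPARg peaks in every list, so these counts say little of the libraries with that growth text alone. Of 22043 CTCF regions called in both WT libraries, 72.3% were called in both KO libraries too and 13.4% in neither.

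PPARg binds DNA as a heterodimer with a retinoid X receptor. Its preferred element, DR1, is a pair of AGGTCA half-sites in the same direction with 1 base between them. PPARa, the main PPAR of hepatocytes and the driver of the fasting response, recognises the same element, and HNF4A, a hepatocyte lineage factor, binds closely related ones. H3K27ac marks active enhancers and promoters, and H3K4me3 marks mainly promoters, so H3K27ac without H3K4me3 is the usual sign of an enhancer away from a start site. In adipose tissue PPARg drives lipid storage genes, and in liver it is known for the same role in steatosis.

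Sequence could be read where a RefSeq promoter window (GRCm38.p6, the mm10 build, 250 bases before to 50 after a start) lay whole inside a site. There were 167 such windows, in 140 sites and at 139 genes, 35 of them protein-coding. Stretches from 8 of them are shown, to let the element be seen inside the sites: 6 in which the closest DR1 match lies upstream of the start with 1 mismatch, and those at the protein-coding genes Mogat1 and St6gal1, with 2. They were chosen after their values were seen. The protein-coding genes Slc17a1 and Steap3 also had an upstream match of 2 mismatches and are not shown. Summits of WT 2, WT 4, KO 7 and KO 8 lay 618, 191, 25 and 46 bp from it at Slc17a1, and 108, 4, 151 and 68 bp at Steap3. Each stretch shown is written 5′ to 3′ on the strand of its transcript, and capitals mark the closest DR1 match, which may read in either direction.

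Gm35078: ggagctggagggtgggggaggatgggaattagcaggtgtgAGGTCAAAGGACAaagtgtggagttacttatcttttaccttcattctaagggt

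Gm39247: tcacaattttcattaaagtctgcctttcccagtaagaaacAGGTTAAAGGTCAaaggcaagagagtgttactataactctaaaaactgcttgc

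Gm34805: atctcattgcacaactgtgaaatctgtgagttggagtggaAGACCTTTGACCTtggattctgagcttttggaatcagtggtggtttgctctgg

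Ctcflos: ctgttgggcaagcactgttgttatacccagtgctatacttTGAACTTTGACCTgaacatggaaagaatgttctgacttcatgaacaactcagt

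Gm32921: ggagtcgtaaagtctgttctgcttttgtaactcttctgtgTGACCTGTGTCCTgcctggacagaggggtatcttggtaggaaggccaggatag

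Gm40522: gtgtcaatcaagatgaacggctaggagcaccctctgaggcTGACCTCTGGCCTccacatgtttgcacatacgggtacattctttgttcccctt

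Mogat1: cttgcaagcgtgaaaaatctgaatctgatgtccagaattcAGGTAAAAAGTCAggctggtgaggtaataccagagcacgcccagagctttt

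St6gal1: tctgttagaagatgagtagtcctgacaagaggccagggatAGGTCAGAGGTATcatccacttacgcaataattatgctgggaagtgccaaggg

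The stretch at Gm35078 is chr14:47296407-47296499 on the plus strand, and its match has 1 mismatch. PPARg fold enrichment there, the authors' value for a peak over its background, was 10.6 in WT 2, 12.4 in WT 4, 20.04 in KO 7 and 16.3 in KO 8. The 4 peak summits lay 13, 70, 28 and 45 bp from the match. At Gm39247 (chr8:109584352-109584444, minus strand, 1 mismatch) the folds were 18.6, 19.4, 44.6 and 39.3 in the same order of libraries, and no summit lay more than 30 bp away. The Gm34805 stretch (chr2:160249969-160250061, minus strand, 1 mismatch) had folds of 27.1, 18.8, 39.6 and 26.95, and its summits lay 157, 91, 100 and 46 bp from the match, farther than at the other 5 stretches of 1 mismatch in WT 2, WT 4 and KO 7. The one at Ctcflos (chr2:173124513-173124605, plus strand, 1 mismatch), a transcript antisense to the CTCF paralogue gene Ctcfl, had 14.8, 11.1, 29.7 and 30.9, with summits 14 to 93 bp from the match. The site at Gm32921 (chr5:106321172-106321264, plus strand, 1 mismatch) had 9.56, 5.88, 17.0 and 24.7, with every summit within 24 bp. At Gm40522 (chr9:62380540-62380632, plus strand, 1 mismatch) the folds were 9.53, 11.3, 17.4 and 11.7, with summits 34 to 45 bp away. Both KO folds were above both WT folds at these sites except Gm34805, where the KO 8 fold lay just below that of WT 2. Median folds of all 5974 sites had the same order, 9.03 and 7.65 in WT 2 and WT 4 and 14.3 and 13.2 in KO 7 and KO 8. The share of all sites with that order was not counted. Folds come from lists made separately, so the order is description only.

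The matches at Mogat1 and St6gal1 have 2 mismatches. Mogat1 encodes a monoacylglycerol acyltransferase of triglyceride synthesis. Its stretch (chr1:78510969-78511059, plus strand) lay 45, 53, 101 and 78 bp from the summits of WT 2, WT 4, KO 7 and KO 8, with folds of 14.9, 11.2, 19.04 and 26.95. H3K27ac covered 32.4%, 19.96% and 22.3% of the 5 kb window around that site for WT 1, 2 and 4, compared with 14.5%, 19.4% and 39.0% for KO 2, 3 and 4, and the genotypes overlapped. St6gal1 encodes a sialyltransferase of secreted glycoproteins, and its stretch (chr16:23290329-23290421, plus strand) had summits 81, 3, 9 and 2 bp away. Folds there were 9.56, 5.88, 11.02 and 8.42 in WT 2, WT 4, KO 7 and KO 8.

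Over all 167 windows no exact DR1 was found on either strand (upper Wilson limit 2.25%), and 8 windows (4.79%, 95% Wilson interval 2.45 to 9.17) held one with at most 1 mismatch. The share over all 32575 promoter windows of that length was 0.559%, and it was 2.49% of 762 windows inside PPARg sites of all 4 lists at H3K4me3. With at most 2 mismatches the shares were 14.4% (9.85 to 20.5), 3.89% and 11.5%. The half-site AGGTCA alone, which makes up exact DR1 and DR4 elements and can lie in their inexact matches, was in 40.1%, 16.2% and 30.3%. DR4, the same pair with 4 bases between, was in 5.99%, 3.03% and 4.86% at up to 2 mismatches. The letters TGTTTAC of FOXA factors were in 10.8%, 3.67% and 6.17%. The letters AGGGGGC found in the CTCF motif were in 1 of the 167 windows (0.599%), against 10.7% and 9.58%, and the sites had been chosen to lack CTCF. Mean GC content was 45.5% inside the distal sites, 53.9% over all windows and 54.8% at H3K4me3, and how much of these differences follows base composition was not tested. In the 24 windows with a DR1 of up to 2 mismatches the summit lay within 100 bp of it in 11 (WT 2), 15 (WT 4), 16 (KO 7) and 15 (KO 8), with median distances of 112, 55, 48 and 61 bp. Windows were searched only where a start happened to fall in a site, and motifs elsewhere in the sites were not analysed here. Windows of 1 gene can overlap, as at Mup-ps16, and the Wilson intervals count each as a separate unit.

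The strength of PPARg at the 5974 sites is described by library, since it chose them. The median fold was 9.03 in WT 2, 7.65 in WT 4, 14.3 in KO 7 and 13.2 in KO 8. Values varied widely among sites, from 5.31 to 24.4 between the 5th and 95th percentile in WT 2 and from 6.01 to 53.6 in KO 7. PPARg sites of all 4 lists at H3K4me3 had medians of 9.03, 7.65, 13.0 and 12.4, and those without an H3K27ac region of all 6 had 7.44, 6.47, 12.5 and 11.7. Folds come from lists made separately in each library, with 15514 to 16612 peaks in WT and 26345 to 27431 in KO. The WT 4 list reached down to a −log10 q of 1.31, and those of WT 2, KO 7 and KO 8 to 3.00 to 3.01. No test of genotype was made on the folds. With 2 libraries a group an exact test could not have reached the threshold.

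**Figure D1:**
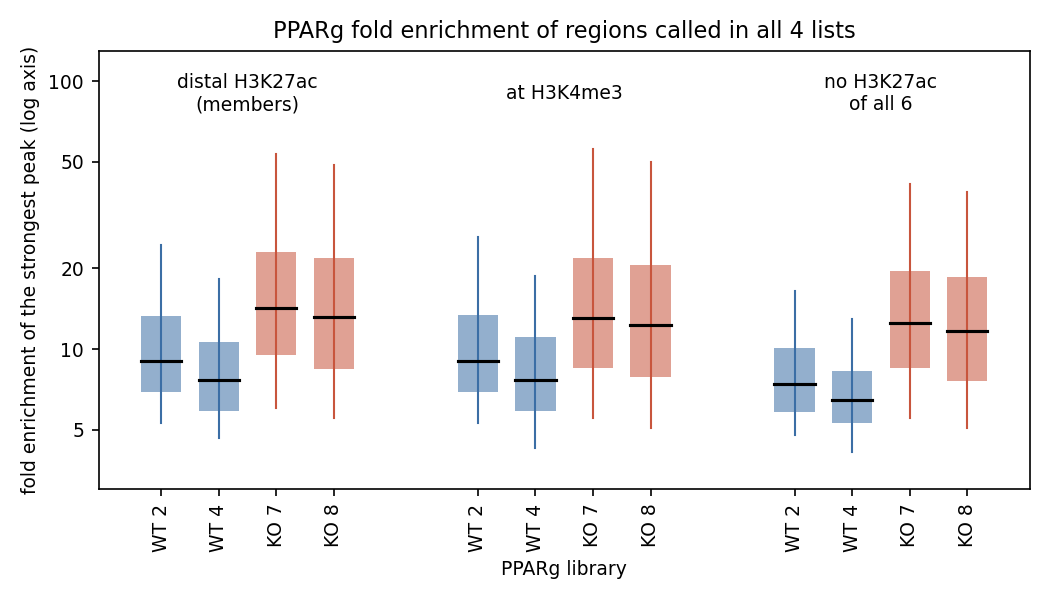
Fold enrichment of the strongest PPARg peak (log axis) in each library, for regions called in all 4 lists: distal H3K27ac sites (5974), sites at H3K4me3 (2504) and sites without H3K27ac of all 6 libraries (1215). Boxes run from the 25th to the 75th percentile, lines from the 5th to the 95th, and the black bar is the median; in each of the 3 sets both KO medians lie above both WT medians.

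The length of chromatin that PPARg peaks covered inside a site averaged 724 bp in WT 2, 573 bp in WT 4, 1314 bp in KO 7 and 1370 bp in KO 8. Both KO lengths were above both WT lengths at 5125 sites (85.8%), beside 82% of all PPARg regions called in all 4 lists, and below both at 37 (0.619%, beside 1.32%). The KO mean divided by the WT mean was 2.07 at the distal sites and 1.75 at the shared sites at H3K4me3, while the mean peak width of the whole lists had a ratio of 1.57. The longer KO peaks thus ran through the whole lists, and their part in the lengths at these sites was not tested. Peaks of all 4 lists had to join into 1 region, which favours summits that lie close, so the gaps between summits are description. Summits of WT 2 and WT 4 lay a median of 73 bp apart, those of KO 7 and KO 8 69 bp, and those of a WT and a KO library 91 to 109 bp. The widest gap among the 4 summits exceeded 500 bp at 11.7% of sites, beside 19.4% of the shared sites at H3K4me3.

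The strongest sites, by the mean within-list percentile of −log10 q, had much higher folds than the median site. One at chr3:121866285-121870265 (mm10), 51.0 kb from Abcd3, which encodes a peroxisomal fatty acid transporter, had folds of 75.4 and 42.4 in WT 2 and WT 4 and 237 and 248 in KO 7 and KO 8. Its 5 kb window was fully covered by H3K27ac in all 6 libraries. A site inside Eci2 (chr13:35014978-35019947), an isomerase of unsaturated fatty acid oxidation, had folds of 66.9, 37.1, 246 and 213. A site 2.29 kb from Cyp4a10 (chr4:115511486-115515998), a fatty acid omega-hydroxylase and classic PPARa target, had 60.04, 40.01, 239 and 227. Folds were 58.4, 38.8, 291 and 283 inside Slc22a23, a transporter-like gene, and 59.5, 32.4, 176 and 171 at 4.96 kb from Cpox, an enzyme of haem synthesis.

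The ranking also placed 3 sites of low fold among the 10 strongest, a pair 1030.46 and 1034.46 kb from Lrrc4c on chromosome 2 and one 333 kb from Alkbh8 on chromosome 9. All had percentiles of at least 99 in every list but folds under 7, and the Lrrc4c pair spanned 4.12 to 6.08. The pair member at chr2:98662136-98663042 and the Alkbh8 site also overlapped an H3K27me3 peak of the WT library, and neither did so in KO. The sources used here name a removal of blacklisted stretches for the CTCF lists alone, and the part of such stretches in these 3 sites was not tested.

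At the other end, the weakest sites lay 11.2 kb from Ppm1a, inside Thrb and 2.19 kb from Ccr7. Their folds ran from 4.18 to 5.84. A further 1971 regions met the rule but for 1 missing list, which was WT 4 in 886, WT 2 in 819, KO 8 in 186 and KO 7 in 80. The best of them lay inside Lars2 (missing KO 8, other folds 3.65 to 6.19), inside Gmcl1 (missing WT 2, with 7.65 in WT 4, 33.1 in KO 7 and 37.1 in KO 8) and inside Camk2b (missing WT 2, with 7.65, 21.5 and 25.8). The Gmcl1 and Camk2b regions had higher KO folds than the median of the chosen sites.

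The span of a protein-coding gene held 3436 of the sites (57.5%), near the 61.0% of all PPARg regions and the 60.6% of those called in all 4 lists. A further 872 (14.6%) lay within 10 kb of one, and 423 (7.08%) were over 100 kb from any. The median distance to the nearest end, 5′ or 3′, of a protein-coding gene was 17722.5 bp. Such an end lay within 1 kb of 324 sites (5.42%), against 49.5% of shared PPARg sites at H3K4me3, a mark the rule used. With noncoding genes and all transcription starts counted as well, 5087 of the 5974 sites had no start or gene end within 1000 bp. The 5974 sites fell in 4921 of the 22732 H3K27ac regions of all 6 libraries. Of these regions 4135 held 1 site, 607 held 2 and 179 held 3 or more. Median widths were 4275, 10058 and 20556 bp in that order. H3K27ac regions that also carried H3K4me3 elsewhere along their length held 1396 of the sites (23.4%), so these sites are distal to the H3K4me3 peak but not to the acetylated region around it.

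The H3K27ac region with most sites, 11 over 115 kb, covered much of Mtss1, which encodes an actin-binding protein of the cell membrane, at chr15:58971670-59087167. Folds of its sites ran from 4.78 to 18.6 in WT 2, from 4.12 to 14.7 in WT 4, from 5.51 to 36.5 in KO 7 and from 4.49 to 34.8 in KO 8. H3K27ac covered most of the region in every library, split into 1 peak (WT 2) to 6 peaks (KO 3). A region of 56.6 kb that lay 60.3 kb from Ptpn1, a phosphatase of insulin and leptin signalling, held 9 sites, with KO folds up to 72.1 (KO 7) and 65.1 (KO 8). Regions of 80.8 kb at Zmiz1, a transcriptional coactivator, 90.5 kb at Shb, a signalling adaptor, and 51.0 kb at Cyb5a, the hepatic cytochrome b5 that supports fatty acid desaturation, held 8, 7 and 6 sites.

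**Figure D2:**
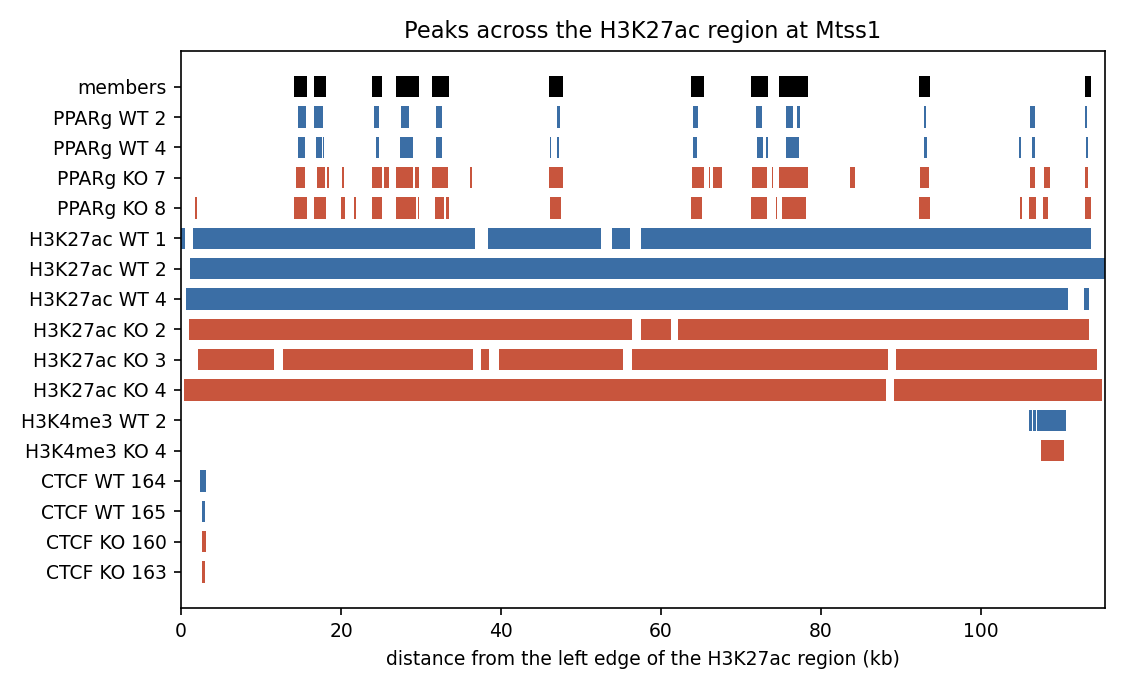
Peaks of each library across the H3K27ac region at Mtss1, as distance in kb from its left edge (115 kb in all). The 11 sites (black) are spread along the region, each over a PPARg peak of all 4 libraries, while the H3K4me3 peaks stand near its right end and the CTCF peaks near its left end.

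Genes with the most sites within 10 kb of their span were long ones. Itpr1, the inositol trisphosphate receptor, had 13 over a span of 338 kb. Rora, Iqgap2 and Arhgap26 had 12 each, Mtss1 had 11, Vps13d, Mical3 and Zmiz1 had 10, and Cmip and Lpp had 9. Genes with 5 or more sites numbered 115 and had a median span of 161427 bp, against 17329 bp for all genes. Of 21631 protein-coding genes 3094 had a site within 10 kb (14.3%), and of the 11786 genes with H3K4me3 in both genotypes 21.6% did. These shares are the background for the gene lists, which were chosen with earlier results of these data known and carry no test.

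Receptors and coregulators came first by number of sites. Of 26 genes in that list 16 (61.5%) had a site, 50 sites in all, and the median span of its genes was 82.9 kb. Rora, a receptor of the clock, had 12 and Thrb, a thyroid hormone receptor, 9. Ppara and Pparg themselves had 4 each and Rxra, the shared partner, 3. The strongest Ppara site (chr15:85785782-85788932, inside the gene) had folds of 35.7 (WT 2), 25.5 (WT 4), 101 (KO 7) and 98.3 (KO 8). The strongest Pparg site (chr6:115420444-115422274, inside the gene) had 12.2, 11.8, 17.5 and 25.3. The Rxra sites were weak, with folds of 4.78 to 8.52 over all 4 libraries. Rxra and Pparg sites thus had lower folds than the strongest Ppara site in each library.

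Genes of lipid handling had sites more often than the background share. The same held for shared PPARg sites at H3K4me3, so it is not particular to the distal sites. Those were at 96.7% of the oxidation, 59.1% of the lipid droplet and 71.4% of the synthesis genes, beside 12.3% of all protein-coding genes. In the oxidation and ketogenesis list 18 of 30 genes (60%) had a distal site. The site inside Decr1 at chr4:15936854-15940097, a reductase of unsaturated fatty acid oxidation, had folds of 52.1, 30.6, 218 and 193 in WT 2, WT 4, KO 7 and KO 8. Acaa1b, a peroxisomal thiolase, had 2 sites, the one of higher fold with 55.3, 30.6, 108 and 94.3, and Hadhb, of the mitochondrial trifunctional protein, had 3. Cpt1a, the carnitine palmitoyltransferase that admits fatty acids to mitochondria, had 2 with folds of 5.08 to 12.02. Of 22 lipid droplet and PPARG target genes 14 (63.6%) had a site, with 5 at Lipa, the lysosomal lipase, 3 at Fabp1, the liver fatty acid binding protein, 2 at Cidec, a droplet coat protein, and 2 inside Cd36, the fatty acid translocase. Of 21 genes of fatty acid and triglyceride synthesis 14 (66.7%) had one. Gpam, the first acyltransferase of triglyceride synthesis, had 5, the strongest with 19.7, 17.6, 59.1 and 49.97. The elongases Elovl6 and Elovl5 had 4 and 3, and the desaturase Fads2 had 3.

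The lists of bile acid, plasma protein, glucose, hepatocyte transcription factor and clock genes had shares of 47.4% to 70.8% within 10 kb. For shared PPARg sites at H3K4me3 the shares of these lists ran from 57.9% (clock) to 92.9% (plasma protein), and that of the receptor list was 46.2%. Of 24 bile acid and cholesterol genes 17 (70.8%) had a site, with 7 inside Scarb1, the HDL receptor, 6 inside Abcc2, a canalicular exporter, 5 inside Abca1, the cholesterol exporter, and 3 at Abcb4, the phospholipid exporter. Of 28 plasma protein and apolipoprotein genes 16 (57.1%) had one, with 3 each at Alb, Fga and Cp and 2 at Apoa2. Counting the gene span alone left 3 of the 28 (10.7%), near the 9.25% of all protein-coding genes. In the gluconeogenesis and glycogen list 11 of 20 (55%) did, with 6 inside Pcx, 4 inside Slc2a2, 3 at Tat and 2 at Pck1. Hepatocyte transcription factors had 10 of 20 (50%), led by Nr5a2 with 6, and clock genes 9 of 19 (47.4%), with 5 inside Per2 and 4 inside Hlf besides Rora. Neighbouring genes of a list can share a site, so sites summed over genes can exceed distinct sites. Among these lists and the receptor and lipid lists, 9 in all, the median fold was highest for the lipid droplet list in WT 2 (12.8), WT 4 (11.1) and KO 8 (18.5). In KO 7 it was highest for the oxidation list (19.4).

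Markers of other liver cells differed from list to list. The counts were 1 of 14 for Kupffer cells (Csf1r), 0 of 14 for stellate cells, 1 of 12 for cholangiocytes (Pkhd1), 1 of 13 for lymphocytes (Cd4), and 4 of 14 (28.6%) for endothelium (Stab2, Gpr182, Lyve1 and Tie1), the last above both background shares. With a distance of 50000 bp the endothelial share was 50% and the cholangiocyte share 33.3%, against 28.7% of all protein-coding genes. By the gene span alone 2 endothelial genes (14.3%) had a site, against 9.25% of all. The Gpr182 site also holds a promoter window of Rdh1. The strongest Stab2 site had folds of 18.6, 14.7, 59.1 and 42.7. Of 18 housekeeping genes 2 (11.1%) had a site, Actb and Ywhaz, although H3K4me3 marked all 18 in both genotypes. Ctcf itself had none.

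**Figure D3:**
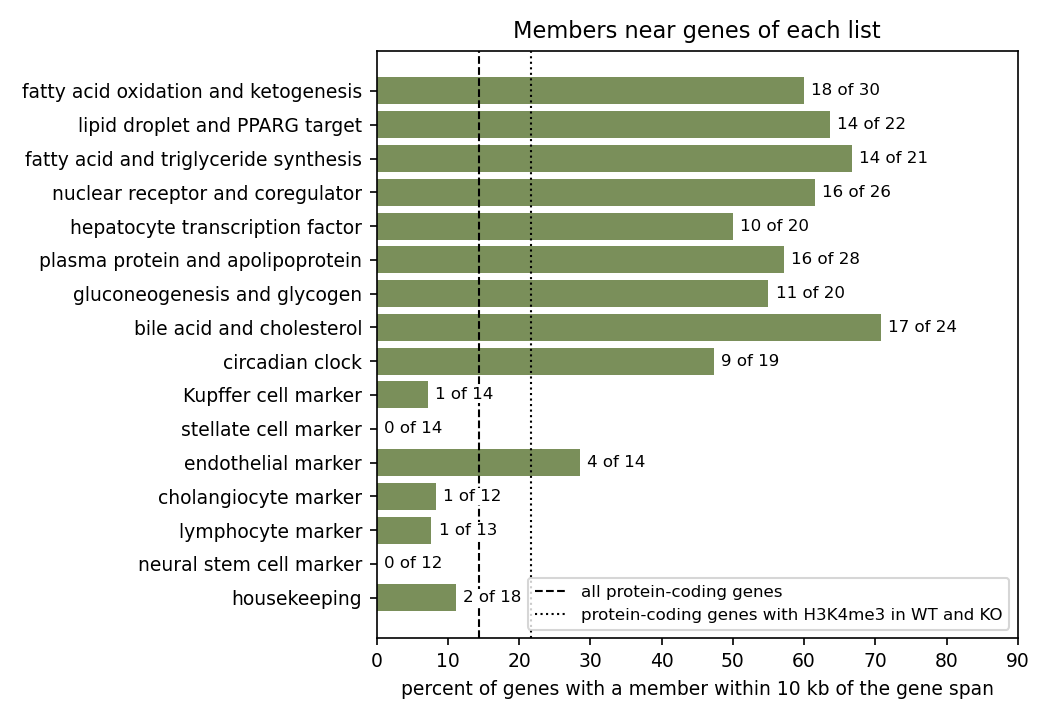
Share of the genes of each list with a distal PPARg site within 10 kb of the gene span (bars, with counts), beside all protein-coding genes (dashed, 14.3%) and those with H3K4me3 in both genotypes (dotted, 21.6%). The 9 lists of metabolic, receptor, transcription factor, plasma protein and clock genes reach 47.4% or more. Among the cell marker lists only the endothelial list exceeds both lines.

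The rule removed sites at CTCF regions of both WT libraries, 72.3% of which were also called in both KO libraries, so the counts of CTCF peaks at the remaining sites are largely fixed by it and are given as description. A peak of WT164 overlapped 62 (1.04%) and one of WT165 36 (0.603%), and the rule let a site keep a peak of 1 WT library. KO160 and KO163 had peaks at 9 (0.151%) and 13 (0.218%). None of the 5974 had a peak in both KO libraries (upper Wilson limit 0.0643%), and 9 had one in a KO library and in no WT library. The nearest CTCF region of both WT lay a median of 21623.5 bp away. H3K27me3, the Polycomb mark, met 5 sites in the WT library and 2 in the KO library, with 1 library a genotype and no replicate check. These 5 lay near Lrrc4c, Alkbh8 (2 sites), Ly6c2 and Mup-ps16, the last in a cluster of near-identical genes where reads may be split between copies.

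H3K27ac was compared between genotypes as the percentage of the 5 kb around each site that peaks covered. The mean over the 5974 sites was 62.9%, 67.7% and 61.3% for WT 1, 2 and 4, compared with 59.4%, 63.7% and 69.7% for KO 2, 3 and 4. The genotypes overlapped, at 64.0% ± 3.30 (SD, n = 3) in WT and 64.2% ± 5.17 (SD, n = 3) in KO. KO 2 was the lowest library and KO 4 the highest. KO 4 also stood apart over the whole genome, with 126 Mb under H3K27ac peaks against 78.2 to 91.5 Mb in the other 5, and without it the median difference of the sites tested was −2.27 percentage points in place of 0.25. All PPARg regions together had 46.3% in WT and 47.7% in KO. Every site had to overlap a merged H3K27ac region with peaks of all 6 libraries, though not a peak of each library at the site itself. The rule thus limited how far the mark could be lost or gained at a site, and the members' counts are not read against those of all regions.

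**Figure D4:**
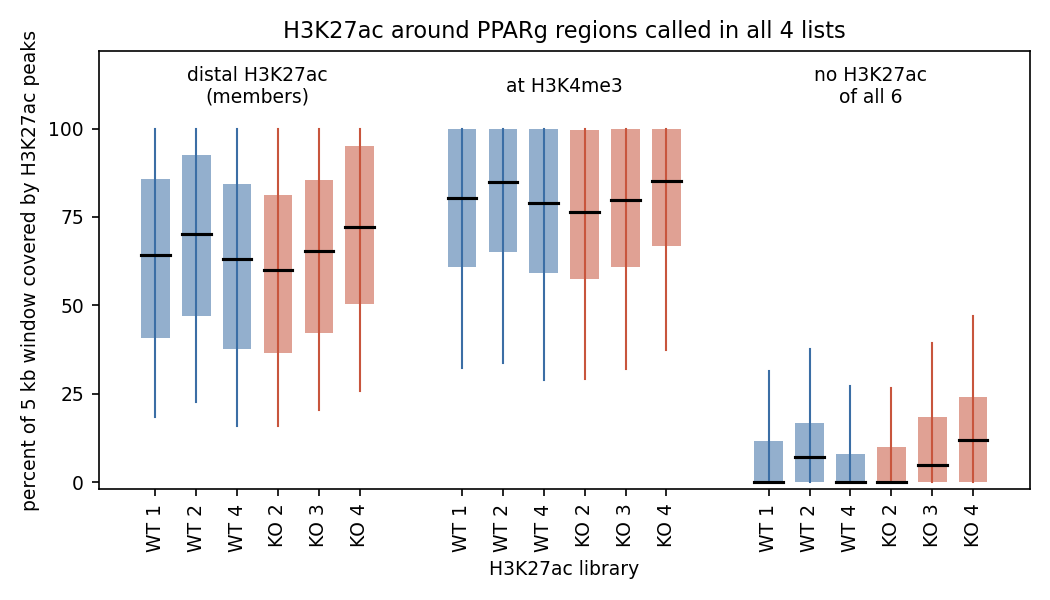
Percent of the 5 kb window covered by H3K27ac peaks in each of the 6 libraries for the same 3 sets of PPARg regions, with boxes from the 25th to the 75th percentile, lines from the 5th to the 95th and black medians. At the distal sites the medians run from 60.01% (KO 2) to 72.1% (KO 4), and the WT libraries lie between these.

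No site passed the test of genotype. limma, fitted on the 28068 of 33942 PPARg windows whose coverage varied, called none at an adjusted p under 0.05 (0% of all windows), and the smallest adjusted p was 0.194. It tested 5487 of the sites, and the other 487 were fully covered in all 6 libraries. At an unadjusted p under 0.05, 220 sites were higher in KO and 212 lower, or 4.01% and 3.86%, beside 4.64% and 2.83% of all windows tested. All 3 KO values lay above all 3 WT values at 317 sites (5.31%, beside 5.68% of all PPARg regions) and below them at 300 (5.02%, beside 3.48%). The median difference was 0.25 percentage points, and the 5th and 95th percentiles of the sites tested were −16.8 and 17.5.

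The 5 sites of smallest p in each direction are named although none passed, with values in the order WT 1, 2 and 4 and KO 2, 3 and 4. The window at the site inside Adgrl2 (chr3:148918204-148919105), an adhesion receptor, was covered to 16.5%, 23.6% and 16.6% in WT and 56.1%, 65.4% and 62.5% in KO, a difference of 42.4 points (SE 4.68, adjusted p = 0.194 by limma). It was 12.7 points with H3K27ac peaks of −log10 q of at least 3, and 1.91 points with lists of equal covered length. A site 3.995 kb from Gstm3 (chr3:107973169-107974994), a glutathione transferase of a family of close paralogues, had 7.22%, 30.3% and 9.94% in WT and 63.3%, 68.4% and 62.2% in KO (adjusted p = 0.211 by limma), and the difference there turned to −8.19 points at a −log10 q of at least 3. The other 3 lay inside Septin9, 33.4 kb from Gm5148 and 192 kb from Foxo1. In the other direction, a site inside Lhpp (chr7:132619603-132621035), a phosphatase gene, had 90.3%, 94.6% and 86.7% in WT and 24.6%, 45.1% and 24.3% in KO, a difference of −59.2 points (SE 6.82, adjusted p = 0.194 by limma). A site inside Usp18 (chr6:121270015-121270721), the interferon-induced deISGylase, had 78.7%, 90.3% and 76.9% in WT and 46.1%, 40.2% and 41.7% in KO (adjusted p = 0.207 by limma). The other 3 lay inside Mup-ps12, 13.8 kb from Mup7 and 60.4 kb from Mycn. Mup genes, which encode urinary pheromone carriers, are near-identical copies, and their values are uncertain. At each of the 10 sites the 3 values of a genotype did not overlap those of the other, which a choice by smallest p favours. Over all sites 317 (5.31%) and 300 (5.02%) were separated in this way, higher and lower in KO.

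**Figure D5:**
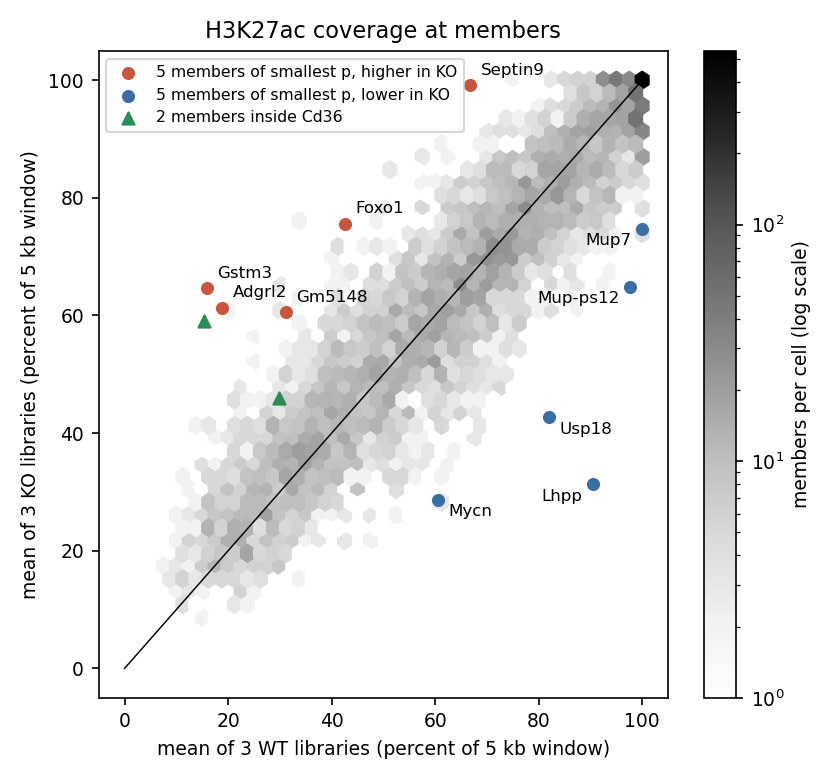
Mean H3K27ac coverage of the 5 kb window in 3 KO libraries against 3 WT libraries for the 5974 distal PPARg sites (grey cells, number of sites on a log scale). Coloured points are the 5 sites of smallest limma p in each direction, none below an adjusted p of 0.194, and triangles are the 2 sites inside Cd36.

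A count past the threshold arose in 1 alternative. When H3K27ac peaks were restricted to a −log10 q of at least 3, limma called 4 of the sites lower in KO, among 27 of all 23734 windows tested (0.114%). These 4 are named by their nearest protein-coding gene, at whatever distance. The site named by Nudt7, a peroxisomal coenzyme A hydrolase, then had 69.7%, 72.6% and 75.4% in WT and 0% in every KO library (adjusted p = 0.0163 by limma). The nearest genes of the other 3 were Id2, an inhibitor of helix-loop-helix factors, Nxpe4 and Arid1b, a chromatin remodelling subunit. Each of these sites was also at 0% in all 3 KO libraries. With all deposited peaks the differences at these sites were −32.2 (Nudt7), −4.23 (Id2), −5.52 (Nxpe4) and −6.53 points (Arid1b), with adjusted p = 0.458, 0.919, 0.855 and 0.855 by limma. At the sites named by Id2, Nxpe4 and Arid1b no KO peak thus met the stricter limit, while all deposited peaks together covered nearly as much of the window as in WT.

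No list had a site past the adjusted threshold by limma, and at an unadjusted p under 0.05 the lipid droplet list had 1 site higher and 1 lower among 24 tested, the oxidation list 0 and 2 among 20, the synthesis list 0 and 1 among 25 and the receptor list 1 and 1 among 47. Median differences were 5.87, −4.20, −1.41 and −0.82 points, against 0.25 for all sites tested. The largest difference of the lipid droplet list was at 1 of the 2 sites inside Cd36. The Cd36 site of higher PPARg fold (chr5:17876060-17878482) had H3K27ac over 21.0%, 45.1% and 23.6% in WT and 24.2%, 54.9% and 58.6% in KO, and the genotypes overlapped (adjusted p = 0.805 by limma). The other (chr5:17880034-17882803) had 5.56%, 31.1% and 9.16% in WT and 31.5%, 75.8% and 70.1% in KO, a difference of 43.9 points (SE 13.2, adjusted p = 0.506 by limma). In that site all KO values were above all WT values, though KO 2 exceeded WT 2 by less than 1 point. PPARg folds there were 9.03, 7.06, 17.0 and 19.1 in WT 2, WT 4, KO 7 and KO 8. The receptors' own sites had differences short of the threshold, from −10.9 to 6.14 points at Pparg (smallest adjusted p 0.722 by limma) and from −5.29 to 6.85 at the 3 Ppara sites tested (0.863).

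Sites close to a lost CTCF region had the same mean H3K27ac in both genotypes. The nearest CTCF region of both WT was within 10 kb and called in neither KO library for 261 sites, whose mean coverage was 68.3% in WT and 68.3% in KO. Those within 10 kb of a CTCF region kept in all 4 libraries numbered 1257 and had 66.3% and 66.2%. By library the 261 sites had 67.8%, 71.9% and 65.3% in WT against 63.2%, 68.8% and 73.0% in KO, the same order of libraries as over all sites.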

How the data were processed

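ChIP-seq of PPARg, CTCF, H3K27ac, H3K4me3 and H3K27me3 from mouse liver gave 18 peak lists, 1 per library. Per the submitters' processing notes, the authors used MACS2 2.1.2 on the mm10 build, and BWA 0.7.12, deepTools 3.1.3 and Picard 1.77 are also named; the control used in calling peaks is not given in the sources used here. The deposited lists hold, per peak, the fold enrichment at the summit, −log10 p and q values and an integer score, all made by the authors. The read depth behind the values is not known. The number of peaks in a list stands for it only loosely, since the lists reach down to different limits of −log10 q.

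Peaks were merged per factor by 1 bp. PPARg fold and within-list percentile of −log10 q were those of the strongest peak in a region, and folds were not compared by test. H3K27ac was measured as the percentage of a window of 2500 bp either side of a region's midpoint that peaks covered. limma 3.58.1 (R 4.3.3) compared 3 KO with 3 WT libraries over all 33942 PPARg regions, 2-sided with Benjamini-Hochberg adjustment at 0.05, with windows of no variation left out and no covariate. The script was tested on simulated data. Gene spans, and promoter sequences searched with up to 2 mismatches, came from RefSeq (GRCm38.p6), and 307 of 308 list entries matched. Wilson 95% intervals cover counting error only, over sites or over promoter windows, some of which overlap. Python 3.11.15, numpy 2.4.6, scipy 1.17.1 and matplotlib 3.10.9 were used.

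Named sites and genes followed a rule: the 10 strongest members by percentile, the 5 H3K27ac regions and 10 genes with most members, up to 4 genes of each list, the 5 smallest p in each direction, the 3 weakest members, the 3 best regions missing 1 list, and Pparg, Ppara, Rxra, Cd36 and Ctcf. The printed sequences and the sites called only at −log10 q of 3 or more fall outside it. Some of the strongest sites are not reported here. The members and lists were chosen with earlier results of these data known. Alternatives were other peak thresholds, windows and filters, scaling by covered length, a replicate block and leaving out each library. No genome was used, so motifs were searched only in promoter windows inside the sites.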

Additional observations from a re-analysis of the deposited data

How the results depend on the processing

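The count of sites with a different H3K27ac window was 0 in 12 of 13 alternatives and 4 at a −log10 q of at least 3. The 12 include each library left out in turn (0 to 0), scaling and the fit with a replicate block. The block fit had 76 higher and 72 lower at an unadjusted p under 0.05 by limma. Only labels 2 and 4 occur in both genotypes, so that fit rests on few values and could hardly call a site. Fits without 1 library also had fewer values, so their counts of 0 add little. Same-numbered WT and KO libraries correlated at −0.14 (WT 2 and KO 2) and −0.10 (WT 4 and KO 4) in their deviations. Differently numbered ones reached 0.18 (WT 2 and KO 4). With so few libraries a genotype these values cannot settle whether same-numbered libraries were paired. At a −log10 q of at least 3 the Gstm3 difference reversed to −8.19 points, and the cause was not tested. The other 126 of 127 values of the 10 named sites kept their direction, and none passed the threshold. The Adgrl2 difference fell from 42.4 points to 12.7 at that limit and to 1.91 with lists of equal covered length (adjusted p = 0.979 by limma). The median difference ran from −9.12 points, divided by total covered length, to 2.44. With that division 65 sites were higher and 578 lower at an unadjusted p under 0.05 by limma. These were 1.09% and 9.68% of the sites tested, beside 1.90% and 7.24% of all windows tested. Without KO 4, 134 were higher and 352 lower (2.45% and 6.43%, beside 2.85% and 5.42% of all windows tested). Without KO 2, 368 were higher and 134 lower (6.79% and 2.47%, beside 8.32% and 1.82%). The number of sites was 5696 at a PPARg −log10 q of at least 3 and 2193 at one of at least 10. Leaving out 1 PPARg list gave up to 6859. Genes with a site numbered 6213 within 50000 bp and 2001 within the span alone, where 7 of the oxidation list (23.3%) and 3 of the plasma protein list (10.7%) had one, against 9.25% of all genes. Windows of protein-coding genes alone, and medians in place of means, were added after seeing the data, and gave a DR1 share of 13.0% and a difference of −0.07 points. Sequence windows around summits were not run, since no genome was used.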
